A study of Mus musculus with 3 samples.

Results

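The genes described here are 57 regulators of chromatin and DNA methylation, taken by symbol from the 32531 gene symbols listed in each count table, and all 57 had a row. They comprised 8 CHD remodellers, 13 subunits of SWI/SNF and ISWI remodellers, 11 histone deacetylases, 2 histone acetyltransferases, 9 genes of histone methylation and the Polycomb core, 3 histone demethylases, 3 DNA methyltransferases, 3 TET dioxygenases and 5 genes of the methyl-CpG-binding domain family. The RNA came from adult transgenic mice of the Slc17a6-TRAP line JX883, which make an EGFP-tagged ribosomal protein L10a under Slc17a6, the gene of the vesicular glutamate transporter VGLUT2. Tagged polysomes were immunopurified from untreated prefrontal cortex with antibodies to EGFP, a method called translating ribosome affinity purification. There were 3 libraries, each from a pool of 3 mice, and all formed 1 group. No input RNA or other group was analysed here, so levels here say nothing of enrichment over whole tissue, and fewer cells of a type cannot be told apart from less RNA per cell.

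Chromatin remodellers use ATP to slide or evict nucleosomes, and deacetylases, acetyltransferases, methyltransferases and demethylases write or remove marks on histone tails. DNA methyltransferases place methyl groups on cytosine, TET enzymes oxidize them, and methyl-CpG-binding proteins read them. Several of these factors exist as related genes that replace each other within a complex as neural progenitors become neurons, and the adult brain is rich in both oxidized methylcytosine and methylation outside CpG sites. Mutations of many members cause disorders of brain development.

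The libraries held 12592174, 8964137 and 12648577 counts of named genes in replicates 1, 2 and 3. The 57 genes took 0.608%, 0.631% and 0.588% of them. Of 6 markers of glutamatergic neurons all reached 1 CPM (CPM being counts scaled to the same total of named genes in each library) in every library, with a summed level of 4304 to 4745 CPM. GABAergic markers also all did (5 of 5, 712 to 791 CPM), as did astrocyte (5 of 5, 88.1 to 136 CPM), oligodendrocyte (5 of 5, 325 to 460 CPM) and oligodendrocyte precursor markers (4 of 4, 32.8 to 44.2 CPM). Of 5 microglia markers 4 did (24.8 to 32.3 CPM, C1qa at 0 counts), and of 4 endothelial markers 1 did (3.02 to 4.13 CPM). Of 6 markers of dividing cells 2 did (31.5 to 39.3 CPM), Pcna with 28.7 to 31.0 CPM and Mcm2, while Ccnb1 had 0 counts. What part messages of other cell types had in the levels below was not tested.

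Nearly the whole set was found in the immunopurified RNA. In each library 56 of the 57 genes reached 1 CPM (98.2%), against 37.9% of all symbols listed. The exception was Dnmt3b, a de novo DNA methyltransferase, with 5, 0 and 9 counts in replicates 1, 2 and 3. A level of 100 CPM or more on average was reached by 21 members (36.8%), against 17.4% of the 12321 genes that passed 1 CPM in each library. Genes were compared with each other in TPM, which divides counts by the length of a gene's merged exons, since members were long (median 7930 exonic bases against 4775). The median member stood at 5.18 log2 units (36.4 TPM), against 4.75 (26.8 TPM) for the 11595 genes at 1 CPM or more that had a length. Above that median of all genes lay 36 of 57 members (63.2%). With coding length alone the medians were 4.66 and 4.49.

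**Figure D1:**
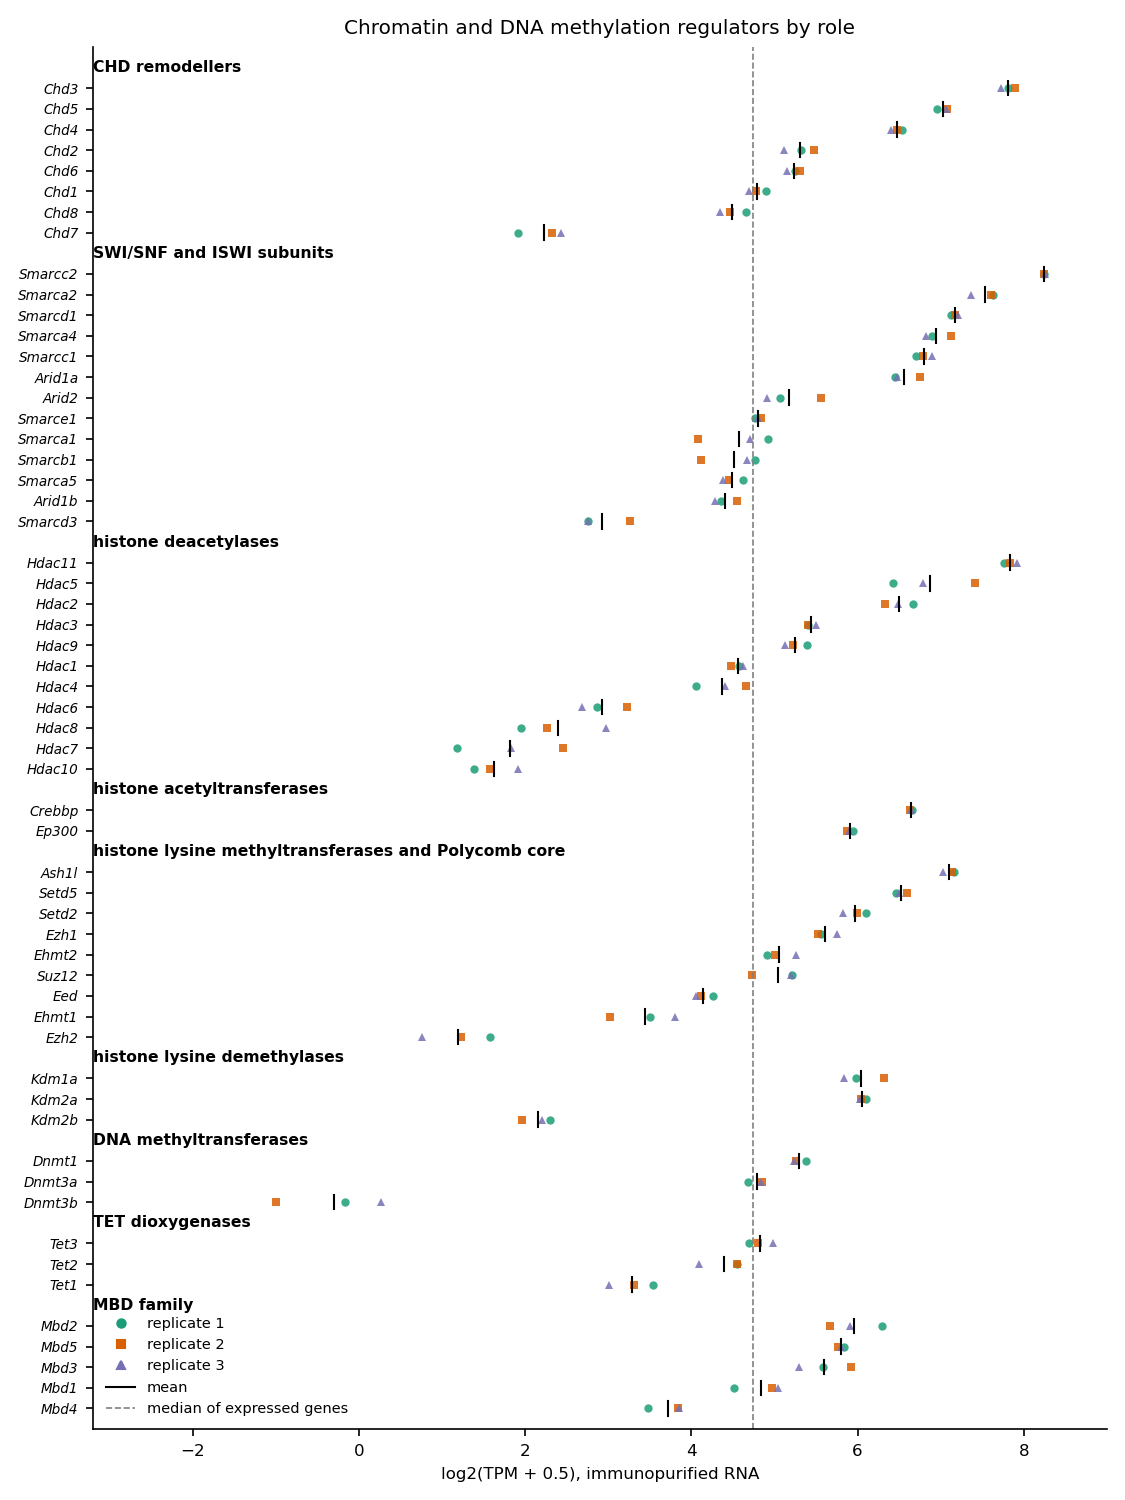
Level of each of the 57 genes on a log2(TPM + 0.5) axis, grouped by role and ordered by mean. Symbols are the 3 libraries, bars their mean, and the dashed line the median of genes that passed 1 CPM in each library (4.75). The acetyltransferases (Crebbp and Ep300) lie 0.74 log2 units apart and the DNA methyltransferases Dnmt3a and Dnmt3b 5.09.

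Related members were compared within each library as the difference in log2(TPM + 0.5), a scale that understates differences involving genes of low level. Fold differences of pairs were taken from this scale, so with a gene of low level they lie below the ratio of the TPM printed. There were 30 such pairs, 28 of them between members. The difference had the same direction in 3 of 3 libraries for 28 of the 30 pairs, for each of which the exact two-sided sign-flip permutation test gave p = 0.25, the smallest that 3 libraries allow, with an adjusted p of 0.27 over 30 pairs. No pair could therefore pass 0.05, and sizes are given with their SD over 3 libraries. Taken as fold differences, 12 of the 30 moved by over 1.5 times when the longest transcript, the coding length or no length was used, and their ranges over these scales are given beside them.

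**Figure D2:**
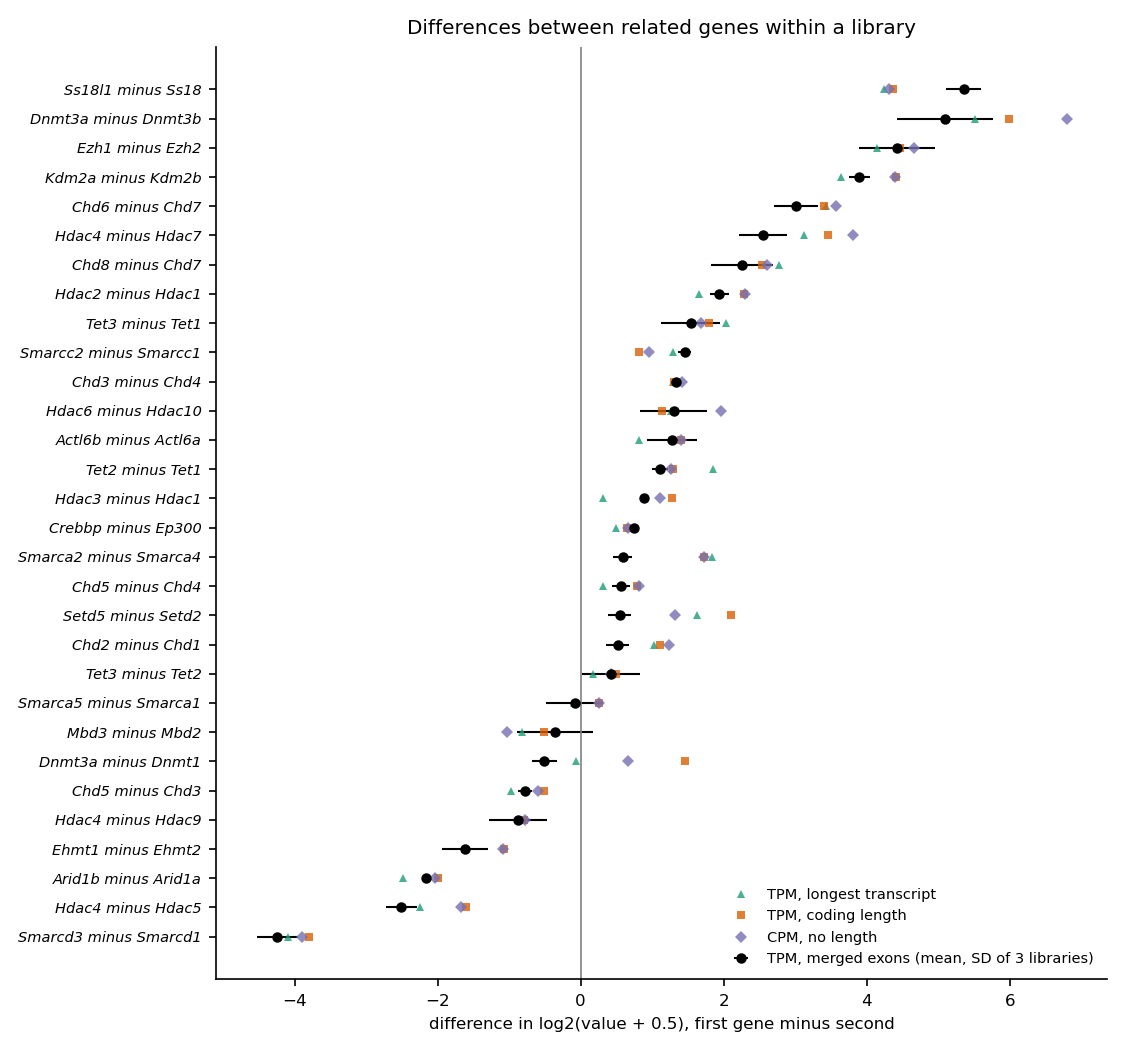
Difference between related genes, first minus second, in log2 units. Black points are means of 3 libraries with their SD on the TPM scale of merged exons, and coloured symbols give the same difference with other lengths or none. The symbols of Smarca5 minus Smarca1 and of Dnmt3a minus Dnmt1 lie on both sides of 0.

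Among the CHD remodellers, the 3 ATPases of the NuRD complex, which joins nucleosome remodelling to histone deacetylation, were highest. Chd3 stood at 223, 237 and 212 TPM in replicates 1, 2 and 3. Chd5, a form made mainly in neurons, stood at 123, 134 and 134 TPM, and Chd4 at 91.9, 88.6 and 84.0 TPM. The libraries of these 3 genes did not overlap, and Chd3 exceeded Chd4 by 1.34 ± 0.07 log2 units (2.53-fold) and Chd5 by 1.71-fold. Chd5 exceeded Chd4 by 0.56 ± 0.13 log2 units.

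At the low end was Chd7, the gene mutated in CHARGE syndrome, with 3.28, 4.51 and 4.91 TPM. Chd6 had 37.4, 39.2 and 35.1 TPM and lay 3.01 ± 0.31 log2 units above Chd7, or 8.06-fold. Chd8, a gene recurrently mutated in autism, lay 2.26 ± 0.43 log2 units above Chd7, with 24.7, 21.5 and 19.8 TPM. Chd2, in which mutations cause epilepsy, had 39.5, 44.1 and 34.2 TPM. Chd1, which binds methylated histone H3 at active promoters, had 29.2, 26.9 and 25.4 TPM, below Chd2 in each library. Chd2 exceeded Chd1 by 0.52 ± 0.16 log2 units (0.52 to 1.23 over the length scales), and 19.3% of the exonic bases of Chd2 were shared with other annotated genes.

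The SWI/SNF (BAF) complex is built from a choice of related subunits. Smarcc2, a scaffold subunit also called BAF170, was the highest of all 57 genes and had 304, 303 and 304 TPM. Its spread over libraries was the smallest among the members tested (0.439% of the mean). As the lowest of 56 such values, each from 3 libraries, it does not mark the gene as more stable than others. Smarcc1, the alternative scaffold BAF155, had 104, 110 and 119 TPM, 1.45 ± 0.10 log2 units lower (0.82 to 1.45 over the length scales). Of the alternative ATPases, Smarca2 had 198, 194 and 164 TPM and Smarca4 had 118, 139 and 113 TPM. Smarca2 was higher in each library, by 0.59 ± 0.14 log2 units (1.5-fold), and by 1.83 log2 units (3.55-fold) with the longest transcript, since merged exons of Smarca2 covered 14269 bases against 5921 in its longest transcript.

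Smarcd1, which encodes BAF60a, stood at 139, 144 and 147 TPM, whereas Smarcd3, which encodes BAF60c, stood at 6.27, 9.07 and 6.27 TPM. The difference was 4.24 ± 0.29 log2 units (18.9-fold). Of the exonic bases of Smarcd3, 48.2% were shared with Chpf2 and a microRNA gene on the other strand, and of those of Smarcd1 12.7% were shared. Arid1a, the larger DNA-binding subunit of canonical BAF, had 86.8, 107 and 88.3 TPM and its alternative Arid1b had 20.0, 23.0 and 19.0 TPM, a 4.46-fold difference. Arid2, the corresponding subunit of the PBAF form, stood between them at 36.4 ± 8.97 TPM. The core subunits Smarcb1 and Smarce1 stood at 22.8 ± 5.27 and 27.4 ± 0.742 TPM.

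The order of the ISWI ATPases Smarca1 and Smarca5 depended on library and length. Smarca1 had 29.8, 16.4 and 25.5 TPM and Smarca5 had 24.1, 21.4 and 20.3 TPM, so that Smarca5 was higher only in replicate 2. The mean difference was -0.08 ± 0.40 log2 units (exact sign-flip permutation p = 1.0), and it turned to 0.26, in the same direction in 3 of 3 libraries (p = 0.25), both with the coding length and without length in the same exact permutation test.

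Some of the subunits that neurons exchange for those of progenitors were examined in addition, and not all such subunits were paired. Of 17 other SWI/SNF subunits looked at, Dpf3 was the lowest, at a mean of 2.05 TPM, and was not paired. Ss18l1, which encodes the neuronal subunit CREST, had 181, 181 and 194 TPM. Ss18, its counterpart, had 3.24, 3.92 and 5.17 TPM, 5.35 ± 0.25 log2 units lower (4.24 to 5.35 over the length scales). Actl6b, which encodes the neuronal actin-related subunit BAF53b, had 21.0, 26.6 and 24.0 TPM. It exceeded Actl6a, with 9.68, 7.92 and 11.2 TPM, by 1.28 ± 0.36 log2 units (0.81 to 1.41 over the length scales). For Actl6a, 11.6% of exonic bases were shared with another gene.

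The histone deacetylases spread from 2.63 to 229 TPM. Hdac11, the only class IV enzyme, was highest with 217, 228 and 241 TPM, and 17.9% of its exonic bases were shared with antisense genes. In class I, whose enzymes are nuclear and catalyse most histone deacetylation, Hdac2 had 101, 80.1 and 89.3 TPM and Hdac1 had 23.3, 21.8 and 24.0 TPM. Hdac2 was 3.84-fold higher, by 1.94 ± 0.13 log2 units. Hdac3, the catalytic subunit of the NCoR and SMRT corepressors, had 41.9, 41.7 and 44.9 TPM, and Hdac8 stood at 5.0 ± 2.10 TPM. Hdac3 lay 0.88 ± 0.05 log2 units above Hdac1, but the size depended on length (0.31 to 1.27 over the length scales).

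Class IIa enzymes shuttle between nucleus and cytoplasm with neuronal activity and calcium signals. Hdac5 was the highest of them with 85.4, 170 and 110 TPM. Hdac9 had 41.4, 36.8 and 34.5 TPM and Hdac4 had 16.1, 24.6 and 20.6 TPM. Hdac7 had 1.76, 4.97 and 3.05 TPM, and these 4 genes kept their order in each library. Hdac4 minus Hdac5 was -2.51 ± 0.22 log2 units (-2.51 to -1.61 over the length scales). Hdac4 lay 0.88 ± 0.40 log2 units below Hdac9 and 2.55 ± 0.34 above Hdac7 (2.55 to 3.81). Antisense exons overlapped 22.4% of the exonic bases of Hdac4. Of the class IIb pair, Hdac6, a cytoplasmic tubulin deacetylase, had 6.81, 8.85 and 5.93 TPM. Hdac10, which acts on polyamines, had 2.11, 2.48 and 3.28 TPM from 18, 15 and 28 counts, so its values carry a large counting error, and the difference of 1.30 ± 0.47 log2 units ranged from 1.13 to 1.96 over the length scales.

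The acetyltransferases that serve as coactivators of CREB had a small spread. Crebbp had 100, 98.8 and 99.3 TPM and Ep300 had 61.3, 58.0 and 58.9 TPM. Crebbp exceeded Ep300 by 0.74 ± 0.03 log2 units (1.67-fold), and no library of either gene overlapped the other.

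Among histone methylation genes, Ash1l, a methyltransferase that counters Polycomb silencing, was highest with 142, 140 and 130 TPM. Setd5, a SET-domain gene mutated in intellectual disability, had 87.9, 95.9 and 89.8 TPM. Setd2, which methylates histone H3 along transcribed genes, had 68.0, 63.0 and 56.0 TPM, below Setd5 in each library. The difference of 0.55 ± 0.16 log2 units ranged up to 2.10 over the length scales. Of the partners that dimethylate histone H3 in silenced chromatin, Ehmt2 had 29.7, 31.5 and 37.8 TPM and Ehmt1 had 10.8, 7.59 and 13.5 TPM. Ehmt2 was 3.07-fold higher, by 1.62 ± 0.32 log2 units. Ehmt1 minus Ehmt2 was -1.07 log2 units with the coding length.

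Polycomb repressive complex 2 has alternative catalytic subunits, Ezh1 and Ezh2, the latter being typical of dividing cells. Ezh1 (ENSMUSG00000006920.14, mm10 chromosome 11, 101191115 to 101226463) had 46.5, 45.6 and 53.6 TPM. Ezh2 (ENSMUSG00000029687.16, chromosome 6, 47530139 to 47595341) had 2.49, 1.84 and 1.19 TPM, from 42, 22 and 20 counts, and was the lowest of its role. Ezh1 was 21.5-fold higher on the scale with a pseudocount of 0.5 TPM, by 4.42 ± 0.53 log2 units. With 0.1 TPM in its place the difference was 4.70 log2 units, and with 1 TPM 4.15. Their shared partners lay between them, Suz12 at 32.9 ± 6.04 TPM and Eed, which binds the methyl mark that the complex writes, at 17.2 ± 1.28 TPM. Of the demethylases, Kdm1a, known as LSD1, had 62.6, 79.3 and 56.4 TPM. Kdm2a and Kdm2b both bind unmethylated CpG, and Kdm2a (68.2, 65.1 and 64.6 TPM) was 14.9-fold above Kdm2b (4.41, 3.40 and 4.12 TPM), by 3.90 ± 0.15 log2 units.

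The DNA methyltransferases ranged from 0.362 to 38.7 TPM. Dnmt1, the maintenance enzyme (ENSMUSG00000004099.16, chromosome 9, 20907209 to 20959888), had 41.1, 37.8 and 37.2 TPM. Dnmt3a, the de novo enzyme that methylates CpG and non-CpG sites in maturing neurons (ENSMUSG00000020661.15, chromosome 12, 3806007 to 3914443), had 25.1, 28.3 and 28.0 TPM. Dnmt3b (ENSMUSG00000027478.15, chromosome 2, 153649450 to 153687730) had 0.388, 0 and 0.698 TPM, and its 0 counts in replicate 2 allow up to 3 counts, or 0.335 CPM, for counting error only. Dnmt3a lay 5.09 ± 0.67 log2 units above Dnmt3b (5.09 to 6.79 over the length scales). This size is set in part by the pseudocount, since Dnmt3b was at or near 0, and was 6.32 with 0.1 TPM and 4.40 with 1 TPM in place of 0.5. The order of Dnmt3a and Dnmt1 depended on length: the difference was -0.51 ± 0.17 log2 units with merged exons, -0.06 with the longest transcripts, 0.65 without length and 1.46 with coding lengths. Merged exons of Dnmt3a covered 16642 bases, of which the coding part is 2724.

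All 3 TET genes were present, with Tet3 at 25.3, 27.4 and 31.1 TPM, Tet2 at 23.0, 22.8 and 16.5 TPM and Tet1 at 11.1, 9.41 and 7.54 TPM. Tet3 and Tet1 did not overlap and differed by 1.54 ± 0.42 log2 units. Tet2 exceeded Tet1 by 1.11 ± 0.11 log2 units (1.11 to 1.86 over the length scales). Tet3 exceeded Tet2 in 3 of 3 libraries, but by 0.43 ± 0.40 log2 units, about the size of its own spread, and by 0.17 with the longest transcripts.

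In the methyl-CpG-binding domain family, Mbd2 stood at 62.6 ± 14.1, Mbd5 at 55.1 ± 1.36, Mbd3 at 48.8 ± 10.6, and Mbd1 at 28.5 ± 5.40 TPM. Mbd4, a DNA glycosylase of base excision repair, was lowest with 10.7, 13.8 and 13.9 TPM. Mbd2 and Mbd3, alternative subunits of NuRD, changed order between libraries on the scale of merged exons: Mbd2 had 78.0, 50.3 and 59.5 TPM and Mbd3 had 47.4, 60.0 and 38.9 TPM. Their difference of -0.36 ± 0.53 log2 units was within its spread on that scale (exact sign-flip permutation p = 0.5, adjusted p = 0.52) and was -0.51 with coding lengths. With the longest transcripts it was -0.81 ± 0.53 and without length -1.03 ± 0.52 log2 units, past its spread and with Mbd2 higher in 3 of 3 libraries (exact permutation p = 0.25 for each).

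Promoter sequences are shown for Ezh1 and Ezh2 and for Dnmt3a and Dnmt3b, as pairs of related genes far apart in level, to set CpG content beside it. The sequences are the 250 bases before the transcript start in RefSeq on GRCm38, 5′ to 3′ on the strand of the gene, with each CpG in capitals. Their positions are chr11:101226464-101226713 (minus strand), chr6:47595031-47595280 (minus strand), chr12:3806910-3807159 (plus strand, the CpG-richest of 3 annotated starts) and chr2:153649199-153649448 (plus strand).
Ezh1: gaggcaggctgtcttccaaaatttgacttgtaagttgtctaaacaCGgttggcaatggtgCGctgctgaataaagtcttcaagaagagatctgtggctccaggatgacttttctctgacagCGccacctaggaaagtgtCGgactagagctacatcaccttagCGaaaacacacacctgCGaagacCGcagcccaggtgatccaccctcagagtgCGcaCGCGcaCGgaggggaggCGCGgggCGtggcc
Ezh2: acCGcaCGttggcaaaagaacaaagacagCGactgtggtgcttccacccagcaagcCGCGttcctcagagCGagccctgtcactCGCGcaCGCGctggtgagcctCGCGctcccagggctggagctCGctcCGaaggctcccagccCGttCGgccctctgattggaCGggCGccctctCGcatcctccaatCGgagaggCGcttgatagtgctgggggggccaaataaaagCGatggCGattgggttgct
Dnmt3a: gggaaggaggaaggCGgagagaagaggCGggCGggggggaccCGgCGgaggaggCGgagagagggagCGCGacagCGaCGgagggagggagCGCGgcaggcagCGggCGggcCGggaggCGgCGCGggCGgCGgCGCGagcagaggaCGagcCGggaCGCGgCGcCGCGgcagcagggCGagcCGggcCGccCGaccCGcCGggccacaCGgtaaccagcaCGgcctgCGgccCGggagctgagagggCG
Dnmt3b: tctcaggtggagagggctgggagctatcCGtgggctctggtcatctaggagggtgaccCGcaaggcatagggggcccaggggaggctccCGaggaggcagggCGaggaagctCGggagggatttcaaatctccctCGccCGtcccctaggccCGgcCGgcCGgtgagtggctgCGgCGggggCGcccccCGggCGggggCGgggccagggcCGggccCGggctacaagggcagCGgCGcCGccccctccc
The motif CG reads the same on both strands and was counted once per position. The Ezh2 window held 23 CpG and that of Ezh1 14, the reverse of their order in level. The Dnmt3b window held 21 CpG and that of Dnmt3a 40. The windows of Ezh2 and Dnmt3a lie within their annotated genes, past another annotated start. Counts per gene do not show which start was used. A window was found for 44 of the 57 members, taking the CpG-richest where a gene had several, and each of the 44 ended within 100 bases of a transcript start in GENCODE. At least 10 CpG were present in 40 of the 44 (90.9%), against 81.3% of the 9169 genes that had a window and passed 1 CPM in each library and 40.2% of all 27025 genes with one. The median was 23 CpG for members and 18 for the expressed genes. The 4 members under 10 CpG were Setd5 with 0, Hdac9 with 2, and Hdac8 and Smarca1 with 6 each.

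Variation between libraries was tested for each gene with edgeR as the goodness of fit of a model with 1 level for all libraries, against the dispersion of genes of like abundance. Of the 56 members with at least 10 counts in a library, 1 varied at an adjusted p under 0.05 (1.79%), against 0.244% of the 14774 genes tested. At an unadjusted p under 0.05 it was still that 1 member (1.79%), against 7.22% of all genes. The median spread of members was 10.7% of the mean against 19.3% for all genes tested. Among genes of like level, from 28.9 to 159 CPM, it was 11.1% for the 29 members and 11.3% for all 4302 genes.

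**Figure D3:**
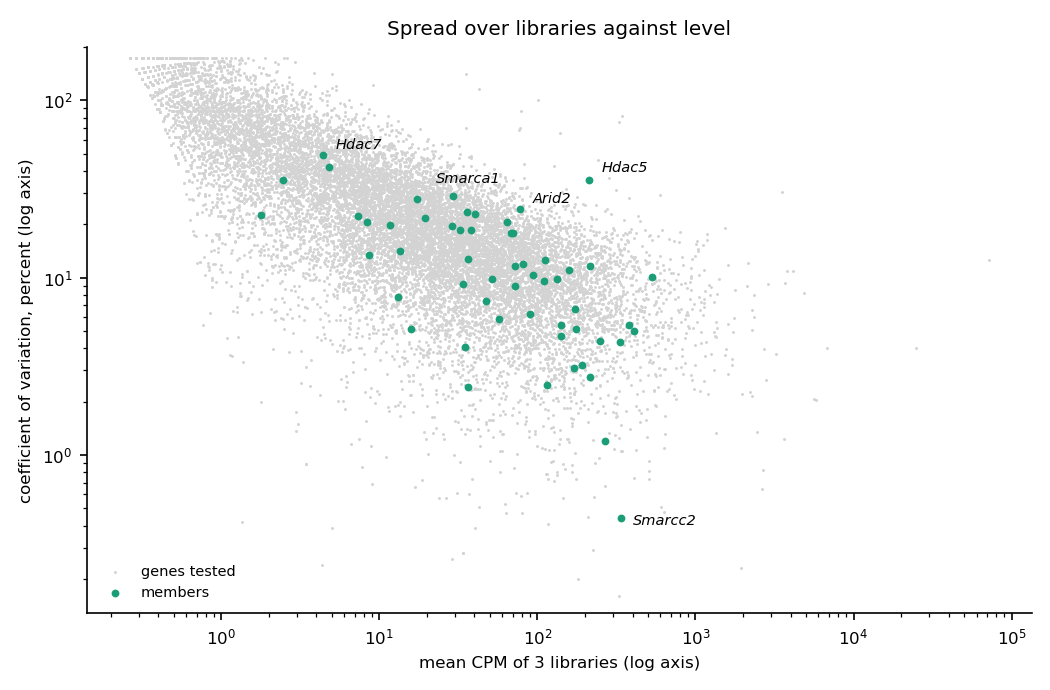
Coefficient of variation over the 3 libraries against mean CPM, both on log axes, for 14774 genes tested (grey) and the 56 members among them (green). Most members lie within the cloud of genes of like level, Hdac5 (35.4% at 213 CPM) lies above it and Smarcc2 (0.439%) near its lower edge.

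The varying member was Hdac5 (ENSMUSG00000008855.17, chromosome 11, 102194432 to 102230166), with 150, 297 and 192 CPM in replicates 1, 2 and 3. It was 1.97-fold higher in replicate 2 than in replicate 1 and 1.55-fold higher than in replicate 3 (edgeR adjusted p = 0.044). Replicate 2 was the library with the fewest counts, and its raw count of Hdac5, 2661, was the highest (1893 and 2429 in replicates 1 and 3). The call was lost without replicate 1 (adjusted p = 0.51), without replicate 2 (0.96), with a common dispersion (0.98), with a count minimum of 1 (0.070) and in a limma variance test (0.14), which called 0.0812% of genes. The common dispersion called 7.43% of genes and 0 members, and another dispersion trend, chosen after seeing the data, called 0.481% of genes and Hdac5 among them. The summed markers of dividing cells were also highest in replicate 2 (31.5, 39.3 and 36.8 CPM in replicates 1, 2 and 3). So were those of endothelial cells (3.02, 4.13 and 3.95 CPM). Both rest on low values, since 5 of 6 dividing-cell markers and 4 of 4 endothelial markers averaged under 5 CPM. The part of these cells in the result was not tested. Summed levels of glutamatergic, astrocyte, oligodendrocyte, oligodendrocyte precursor and microglia markers were highest in replicate 3, and those of GABAergic markers in replicate 1. For the glutamatergic markers the mean log2 CPM over genes ran the other way, at 8.60, 8.52 and 8.45 in replicates 1, 2 and 3.

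The other class IIa genes were looked at after these values were seen. Hdac4 had 51.0, 77.6 and 65.0 CPM and Hdac7 had 2.38, 6.69 and 4.11 CPM, both in the order of Hdac5, and neither passed the test (edgeR adjusted p = 0.87 and 1.0). Hdac9 had 122, 108 and 101 CPM and was highest in replicate 1. The members next in unadjusted p were Arid2, with 71.1, 99.7 and 63.6 CPM (edgeR adjusted p = 0.70), and Smarca1, with 36.6, 20.0 and 31.1 CPM (adjusted p = 0.82).

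**Figure D4:**
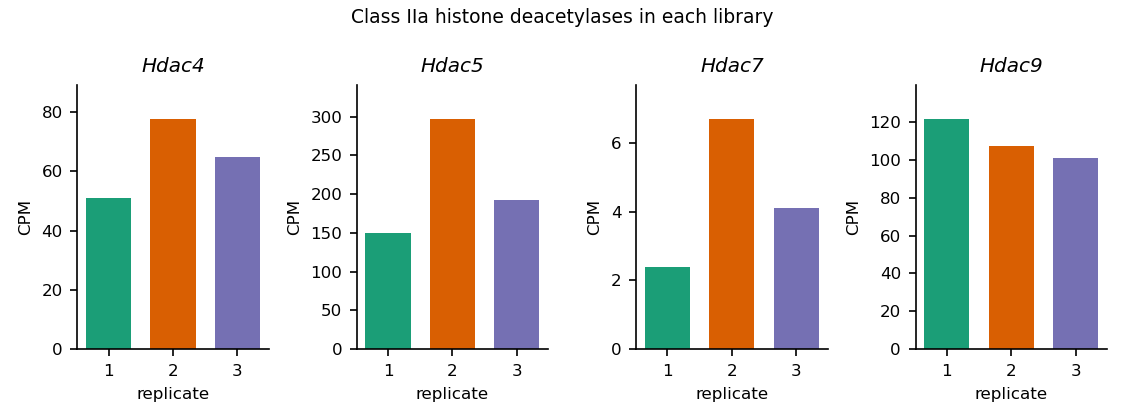
CPM of the 4 class IIa histone deacetylases in each library, 1 bar per library on a linear axis from 0 that differs between panels. Hdac5 reaches 297 CPM in replicate 2 against 150 and 192 in the others, Hdac4 and Hdac7 share that order, and Hdac9 does not.

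Another 96 chromatin genes served for comparison, grouped by function. Of these, 91 (94.8%) reached 1 CPM in every library, and their median was 27.0 TPM. Among those at the top of their groups were Kat2a, an acetyltransferase of the SAGA complex, at 193 ± 40.1 TPM, Ss18l1, Rbbp7, a histone chaperone of several deacetylase complexes, at 171 ± 13.1, Kmt2e at 165 ± 16.8, Sirt2, a cytoplasmic deacetylase abundant in myelinating glia, at 118 ± 17.1, Srcap at 84.6 ± 7.31, Cbx6 at 57.3 ± 5.94 and the demethylase gene Kdm3a at 42.8 ± 6.56 TPM. Of the exonic bases of Srcap, 65.0% were shared with other genes. At the bottom of their groups were Uhrf1, which guides Dnmt1 to replicating DNA, with 0 counts in 3 of 3 libraries, Hells at 0.758 ± 0.330, Cbx8 at 1.62 ± 0.810, Dpf3 at 2.05 ± 1.12, Setdb2 at 5.0 ± 2.76, Kdm4a at 6.87 ± 2.36, Sirt7 at 8.22 ± 3.44, Rcor3 at 8.70 ± 1.09 and Kat2b at 12.2 ± 0.838 TPM. For Uhrf1 the 0 counts allow up to 0.238, 0.335 and 0.237 CPM in the 3 libraries.

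None of the 94 comparison genes tested varied between libraries in edgeR at an adjusted p under 0.05. At an unadjusted p under 0.05 stood 5 of them (5.32%, against 7.22% of all genes), and the limma test called 0. These 5 were Suv39h2, a histone methyltransferase of heterochromatin (10.1, 2.01 and 1.98 CPM), the remodeller Atrx (338, 278 and 205 CPM), Ep400 (80.9, 102 and 60.7 CPM), the demethylase gene Kdm7a (73.6, 44.0 and 45.7 CPM) and the methyltransferase gene Dot1l (10.6, 18.2 and 6.72 CPM), named after their values were seen.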

How the data were processed

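The deposited values are raw counts, whole numbers for each gene symbol, with HTSeq's summary lines at the end. The submitters' processing notes name STAR 2.0.0e, HTSeq and mm10. Annotation, settings and use of strand were not given in the sources used here. Reads of antisense or overlapping genes may not have been told apart. The summary lines took 27.8% ± 0.56 of counts (SD over 3 libraries) and were left out, including 13.3% of counts placed at more than 1 position. Members with near-identical copies elsewhere may thus be undercounted.

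CPM used totals of named genes. TPM used merged exon lengths from GENCODE M21 (mm10), matched by symbol to genes with 90.2% of counts. Logs used a pseudocount of 0.5. Variation was tested with edgeR 4.0.16 (TMM, trended dispersion from estimateDisp, intercept-only goodness of fit on 2 degrees of freedom, Benjamini-Hochberg at 0.05 over genes reaching 10 counts in some library), with limma 3.58.1 and DESeq2 1.42.0 size factors as alternatives, in R 4.3.3. The tests were also run on simulated counts. The changes simulated were larger than that of Hdac5, so the simulation does not bear on its call. Levels were computed in Python 3.11.15 with pandas 2.3.3 and numpy 2.4.6. The libraries are separate samples by their labels. Tests of variation set a gene's spread between these pools of mice against that of other genes, and do not separate biological from technical spread. The sign-flip test asks whether a difference between 2 genes keeps its direction across the pools. Promoter windows came from RefSeq on GRCm38.p6.

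All members are accounted for, and values per library are given for the highest and lowest of each role, for pairs and for varying genes. Of the comparison genes, those highest and lowest in their group by TPM, pairs and varying genes are named, and 1 gene that the rule would name is not reported here. The members, lists and pairs were chosen with earlier results of these data known.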

Additional observations from a re-analysis of the deposited data

How the results depend on the processing

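No paired analysis was possible because there is 1 group. The count of 56 members at 1 CPM or more was the same under TMM or DESeq2 scaling, without Rn45s and without each replicate, and was 52 at 5 CPM. The median member level was 5.18 and stood at 4.66 with coding lengths and between 5.18 and 5.28 without single replicates. The 36 varying genes became 18 at an adjusted p of 0.01, 12 with limma, 1097 with a common dispersion, 71 with another edgeR dispersion trend, chosen after seeing the data, and 16 to 21 without single replicates. The 1 varying member, Hdac5, became 0 at an adjusted p of 0.01, with a common dispersion, with a count minimum of 1 and with limma, and 0 to 1 without single replicates. It was still called, in edgeR, with DESeq2 factors, library totals, a count minimum of 50 and the other trend. Comparison genes called rose from 0 to 1, Suv39h2, with a common dispersion. Pairs in the same direction in every library numbered 27 to 30 under other lengths, pseudocounts and replicates, and 22 of 24 without genes sharing over 10% of exonic bases, which was chosen after seeing the data. Of the 30 pairs, 28 kept the direction of their mean under each of these lengths, pseudocounts and left-out replicates. Dnmt3a minus Dnmt1 turned to 1.46 with coding lengths and 0.65 without length. Smarca5 minus Smarca1 turned to 0.26 in both settings and lay between -0.31 and 0.035 without single replicates, at 0.02 without replicate 1 and 0.035 without replicate 3. The cause of these changes was not tested, apart from the lengths themselves. Depth limits Dnmt3b, Hdac10, Ezh2, Hdac7, Hdac8 and Smarcd3, whose counts were below 100 in each library.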
